A study of Caenorhabditis elegans with 12 samples.

Results

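Nematodes replace their collagenous cuticle at the end of each larval stage, and the same epidermal program builds the first cuticle before hatching. Transcription factors that act in pulses, among them nuclear receptors and relatives of timing genes, drive it in the epidermis, and secreted proteases, protease inhibitors and cross-linking enzymes carry it out. 9 genes of this program were followed in Caenorhabditis elegans, chosen by platform gene symbol: the regulators nhr-23, nhr-25, lin-42, blmp-1 and bed-3, and the mlt genes mlt-7, mlt-8, mlt-10 and mlt-11, named for the failure to molt that follows their loss. They were represented by 18 of 22548 probe sets, each paired with that gene alone, and are 9 of 17118 genes with such a probe set. An s_at probe set can match several transcripts and an x_at probe set can match other sequences, so that their specificity rests on the platform annotation. In RefSeq assembly WBcel235 nhr-23 and blmp-1 are annotated on chromosome I, lin-42, mlt-7, mlt-8 and mlt-10 on II, bed-3 on IV, mlt-11 on V and nhr-25 on X. Positions within chromosomes are left out, since no source used here names the genome build of the array annotation.

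RNA of whole worms, with any embryos inside them, was measured on 12 arrays, 4 for each of 3 groups: wild type strain N2, strain BA1 with the fer-1 allele hc1, and strain BA24 with the fer-1 allele hc24. Whether the groups carried embryos alike was not measured here. Both alleles are temperature-sensitive, and all groups, wild type included, were raised from synchronised L1 larvae at 25 °C to young adults, of which 1000 per sample were taken by a sorter gate set against L4 and younger animals. fer-1 encodes a ferlin needed for membrane fusion during sperm maturation. Of 6 preparations per genotype 4 were kept for their mutual correlation, so the spread between these arrays understates that between preparations.

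Levels are the deposited log2 values. A probe set was tested when it reached log2 4 in at least 4 arrays, and was called at a Benjamini-Hochberg adjusted p under 0.05 in a limma fit across all 11833 such probe sets and all 12 arrays. In hc1 against wild type 69.2% of tested probe sets were called, 25.9% lower and 43.3% higher. In hc24 against wild type 59.4% were called, 21.7% lower and 37.7% higher. The median log2 difference over all tested probe sets was 0.14 in hc1 and 0.12 in hc24. It became 0.40 and 0.38 when arrays were centred on their medians, and -0.03 and -0.00 with cyclic loess. Higher calls made up 62.5% of calls in hc1 and 63.5% in hc24. Median centring raised these shares to 76.8% and 80.6%, whereas cyclic loess gave 43.9% and 45.4%. The fer-1 probe set lay under log2 4 in every array and cannot check the genotypes. The adult collagen gene col-19 and the 5 measured yolk protein genes lay far above log2 4 in each group, and 6 of 7 epidermal markers were detected. The adult genes were not level between groups, col-19 having means of 13.14, 12.46 and 14.12 in wild type, hc1 and hc24. Of these 6 adult genes 2 were lower and 0 higher in hc1, beside 27% and 42.9% of all genes. In hc24, 3 were lower and 1 higher, beside 22.1% and 38%. Both mutant comparisons use the same wild type arrays, and whole-worm RNA cannot tell fewer cells of a type from less RNA per cell.

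Most of the 9 genes were lower in both mutants, with mlt-11 and mlt-8 changing most and mlt-7 going the other way in hc24. Of the 18 probe sets 13 were tested. In hc1, 9 of the 13 were lower and 1 higher than wild type, and 6 of them were at least 2-fold lower, against a background of 10.8% for that rule. None was at least 2-fold higher in hc1 (background 6.38%) or in hc24 (background 5.27%). In hc24, 10 were lower and 1 higher, and 6 were at least 2-fold lower, against 9.52%. Every tested probe set of mlt-11 is among these 6 in each mutant, so 1 gene is counted several times. By brightest probe set, 6 of 9 genes were lower in hc1 (background 27% of genes) and 7 of 9 in hc24 (background 22.1%). At least 2-fold, 4 of 9 genes were lower in each mutant, beside the 10.8% and 9.52% of all probe sets. The arrays did not overlap with wild type for 9 of 13 probe sets in hc1 (background 64.9%) and for 11 of 13 in hc24 (background 55.2%). The share with no overlap in hc1 is thus near that of all probe sets. The median log2 difference of the 13 was -0.87 in hc1 and -0.99 in hc24. The plot of levels by array shows each gene by its brightest probe set.

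**Figure D1:**
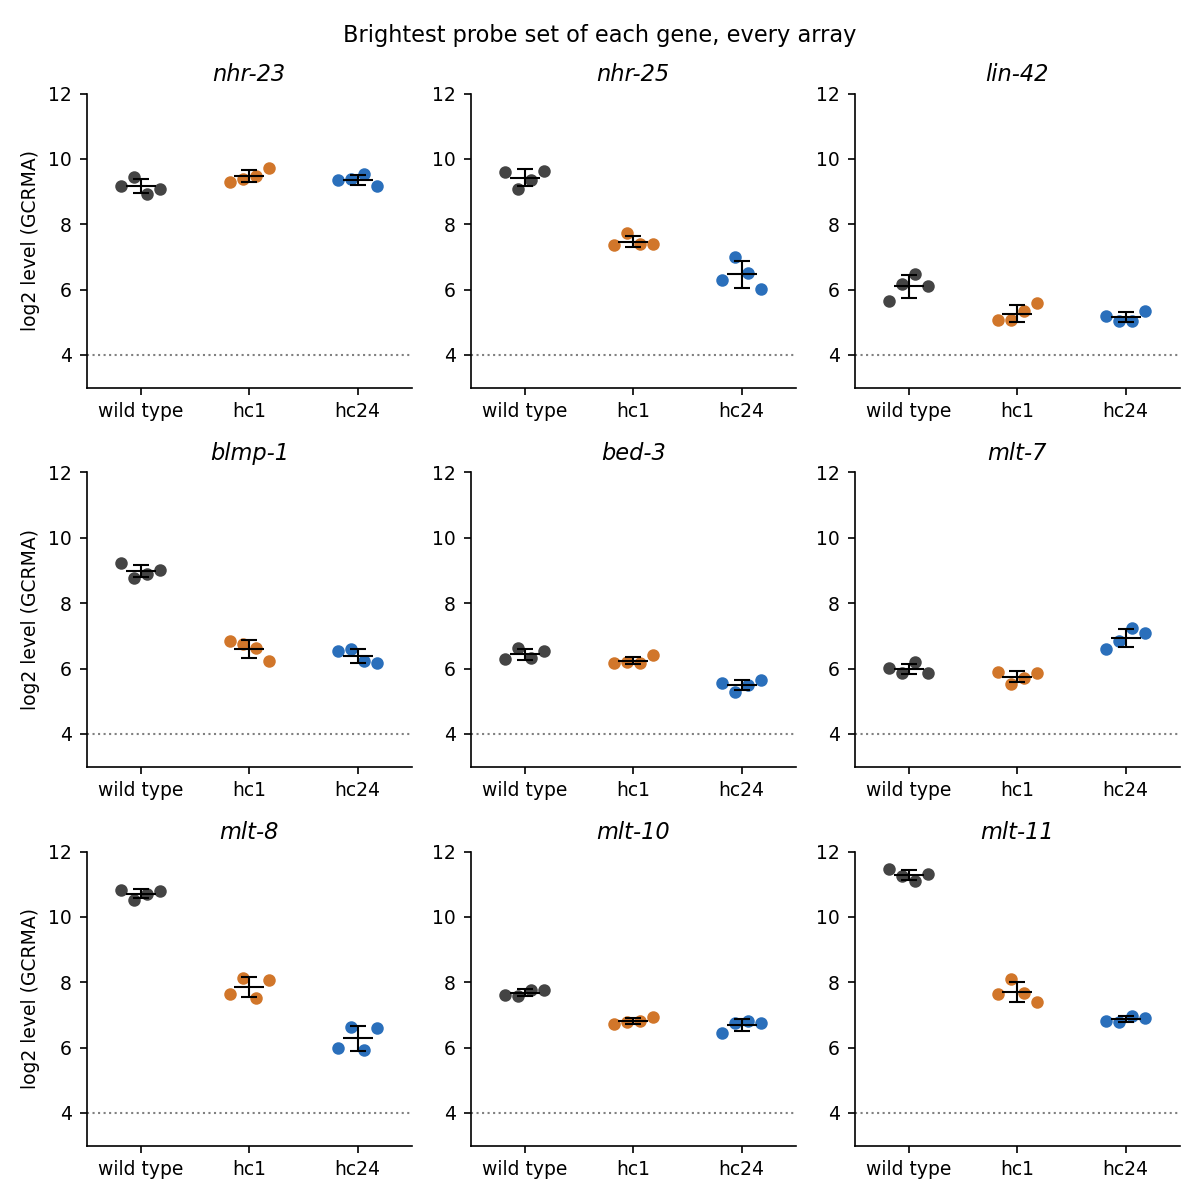
Log2 level of the brightest probe set of each of the 9 genes (vertical axis) in wild type, hc1 and hc24 (horizontal axis). Points are arrays, 4 per group, black marks are mean ± SD, and the dotted line is log2 4. mlt-8 and mlt-11 step down from wild type to hc1 to hc24, nhr-23 stays between 8.92 and 9.73, and mlt-7 is highest in hc24. Levels of different probe sets are not comparable with each other.

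nhr-23 encodes a nuclear receptor related to vertebrate ROR and fly DHR3, needed at each larval molt. Its brighter probe set, 175831_s_at, read 9.18, 9.44, 8.92 and 9.09 in wild type replicates 3, 4, 5 and 6. It read 9.29, 9.40, 9.49 and 9.73 in hc1 replicates 1, 2, 5 and 6, and 9.35, 9.40, 9.54 and 9.17 in hc24 replicates 1, 2, 3 and 5. The ranges of all 3 groups overlap. The rise in hc1 passed narrowly, at 0.32 on the log2 scale (95% interval 0.05 to 0.59, 1.25-fold, adjusted p = 0.0339), of which 0.18 lies above the median of all probe sets. The value in hc24 was 0.21 (adjusted p = 0.161). With median centring the values were 0.57 in hc1 (adjusted p = 0.00157) and 0.46 in hc24 (adjusted p = 0.00684), both called. With cyclic loess the hc1 value was 0.12 (adjusted p = 0.406), and the call was also lost when any of hc1 replicates 5 and 6 or wild type replicates 3, 5 and 6 was left out, the adjusted p reaching 0.104 without wild type replicate 5. It was lost as well with dim probe sets kept (adjusted p = 0.0510) and in a fit of these 2 groups alone (adjusted p = 0.0504). The dimmer probe set, 194130_s_at, lay between 4.74 and 5.48 in all arrays and was not called in hc1 (0.11, adjusted p = 0.382) or hc24 (0.21, adjusted p = 0.0952). Its mutant arrays, at 5.00 to 5.07 in hc1 and 5.00 to 5.48 in hc24, lay narrowly above all wild type arrays, at 4.74 to 4.99. With median centring this probe set was called higher in both mutants, at 0.36 (adjusted p = 0.0120) and 0.47 (adjusted p = 0.00260). Neither probe set was lower in a mutant under any setting tried.

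nhr-25, the worm relative of fly Ftz-F1 and of vertebrate SF-1, acts in epidermal cells and is needed to complete molts. Probe set 175663_at read 9.60, 9.09, 9.35 and 9.64 in wild type replicates 3, 4, 5 and 6. In hc1 replicates 1, 2, 5 and 6 it read 7.37, 7.74, 7.38 and 7.39, and in hc24 replicates 1, 2, 3 and 5 it read 6.31, 7.01, 6.52 and 6.03. No array of any group overlapped with another group, and the order was wild type, hc1, hc24. The gene fell 3.86-fold in hc1, from 9.42 ± 0.26 to 7.47 ± 0.18 (SD, n = 4 each, adjusted p = 2.14e-06), and 7.73-fold in hc24, to 6.47 ± 0.41 (SD, n = 4, adjusted p = 4.93e-08). The level in hc1 was 2.00-fold that in hc24 (log2 difference 1.00, SE 0.19, adjusted p = 0.00157). The other probe set, 193001_s_at, lay under log2 4 in every array, at 2.33 to 2.90 in wild type and 1.78 to 1.81 in the mutants, and was not tested.

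lin-42 is the worm member of the PERIOD family and times larval events and molts. Probe set 179896_at read 5.64, 6.17, 6.47 and 6.11 in wild type replicates 3, 4, 5 and 6, against 5.06, 5.06, 5.35 and 5.59 in hc1 replicates 1, 2, 5 and 6 and 5.20, 5.05, 5.04 and 5.35 in hc24 replicates 1, 2, 3 and 5. Every wild type array was above every mutant array, though wild type replicate 3 and hc1 replicate 6 lay close together. It fell 1.78-fold in hc1 (log2 difference -0.84, SE 0.17, adjusted p = 0.000728) and 1.92-fold in hc24 (log2 difference -0.94, SE 0.17, adjusted p = 0.000422). Between the alleles the difference was 0.10 (95% interval -0.26 to 0.46, adjusted p = 0.684). Its second probe set, 176596_at, was at 2.31 to 2.35 in all 12 arrays. RefSeq lists 7 protein isoforms of lin-42, and which of them each probe set detects is not stated in the sources used here.

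blmp-1 encodes a zinc finger factor related to mammalian Blimp-1 (PRDM1) that acts in the epidermis on developmental timing. Probe set 175302_at read 9.24, 8.78, 8.91 and 9.01 in wild type replicates 3, 4, 5 and 6. It read 6.85, 6.75, 6.62 and 6.23 in hc1 replicates 1, 2, 5 and 6 and 6.55, 6.60, 6.23 and 6.18 in hc24 replicates 1, 2, 3 and 5. The mutant arrays overlapped with each other and lay far from wild type. The fall was 5.18-fold in hc1 (log2 difference -2.37, SE 0.15, adjusted p = 3.77e-08) and 6.04-fold in hc24 (log2 difference -2.59, SE 0.15, adjusted p = 1.59e-08), and the alleles differed by 0.22 (95% interval -0.10 to 0.54, adjusted p = 0.290). The dim probe set 192395_at disagreed in size. It ranged from 4.39 to 5.16 in wild type and from 4.38 to 4.46 in both mutants, with overlap, and its falls of 0.33 and 0.34 on the log2 scale passed narrowly (adjusted p = 0.0349 and 0.0348). Those calls were lost in 10 of the 20 alternatives that tested it, and without wild type replicate 4 the differences were -0.19 (adjusted p = 0.0819) and -0.20 (adjusted p = 0.0753).

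bed-3 encodes a BED zinc finger protein needed for molting and for vulval cell divisions. Its single probe set read 6.29, 6.63, 6.31 and 6.55 in wild type replicates 3, 4, 5 and 6. It read 6.19, 6.19, 6.18 and 6.41 in hc1 replicates 1, 2, 5 and 6, and 5.56, 5.29, 5.51 and 5.64 in hc24 replicates 1, 2, 3 and 5. The hc1 arrays overlapped with wild type, whereas every hc24 array lay below both. The fall in hc24 was 1.93-fold (log2 difference -0.95, SE 0.10, adjusted p = 6.20e-06). In hc1 the value was -0.20 (95% interval -0.42 to 0.02, adjusted p = 0.0902), which became 0.049 with median centring (adjusted p = 0.692). The direct comparison of the alleles passed, with hc1 1.67-fold above hc24 (log2 difference 0.74, SE 0.10, adjusted p = 0.000144).

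The mlt genes held the largest changes. mlt-11 encodes a secreted protein with Kunitz-type protease inhibitor domains. Its brightest probe set, 171847_s_at, read 11.45, 11.26, 11.09 and 11.31 in wild type replicates 3, 4, 5 and 6. It read 7.63, 8.11, 7.66 and 7.41 in hc1 replicates 1, 2, 5 and 6, and 6.82, 6.77, 6.97 and 6.91 in hc24 replicates 1, 2, 3 and 5. The groups did not overlap, and the order was again wild type, hc1, hc24. mlt-11 fell 11.9-fold in hc1 (log2 difference -3.58, SE 0.13, adjusted p = 2.71e-10) and 21.3-fold in hc24 (log2 difference -4.41, SE 0.13, adjusted p = 4.09e-11). Counted from the lowest log2 difference of 11833 probe sets, it ranked 66 in hc1 and 70 in hc24. A separate probe set, 194187_x_at, gave falls of 11.2-fold (adjusted p = 7.71e-10) and 20.2-fold (adjusted p = 9.56e-11), from 10.40 ± 0.21 to 6.92 ± 0.05 and 6.06 ± 0.31 (SD, n = 4 each).

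A further mlt-11 probe set, 194086_at, showed the largest size. It read 9.33, 8.33, 9.18 and 9.05 in wild type replicates 3, 4, 5 and 6 and 4.53, 4.95, 3.63 and 4.95 in hc1 replicates 1, 2, 5 and 6, a 22.0-fold fall (adjusted p = 3.53e-08). In hc24 all 4 arrays lay at 3.61 to 3.80, under log2 4, so the fall was at least 31.4-fold when that group is held at 4 (adjusted p = 6.42e-09). All 3 tested probe sets of mlt-11 were higher in hc1 than in hc24, by 0.83 (adjusted p = 0.000391), 0.85 (adjusted p = 0.000619) and 0.85 (adjusted p = 0.0337) on the log2 scale. The last, from 194086_at, was at least 1.43-fold with hc24 held at 4, and its arrays overlapped. It was not called in 10 of 21 alternatives, among them the one with low values set to 4 (adjusted p = 0.0599) and the one without hc1 replicate 2 (adjusted p = 0.0893). The probe set 179352_at read 1.84 to 1.88 in every array and carries no information on the gene.

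mlt-8 is known from the molting defects that follow its loss. Its single probe set read 10.81, 10.52, 10.70 and 10.79 in wild type replicates 3, 4, 5 and 6. It read 7.65, 8.14, 7.53 and 8.07 in hc1 replicates 1, 2, 5 and 6 and 5.99, 6.63, 5.93 and 6.60 in hc24 replicates 1, 2, 3 and 5. All 3 groups were apart, in the order of mlt-11 and nhr-25. mlt-8 fell 7.26-fold in hc1 (log2 difference -2.86, SE 0.18, adjusted p = 5.17e-08) and 21.4-fold in hc24 (log2 difference -4.42, SE 0.18, adjusted p = 7.91e-10). The difference between the alleles was the largest among the 13 probe sets, at 2.95-fold (log2 difference 1.56, SE 0.18, adjusted p = 4.72e-05).

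mlt-10, whose product gives its name to a nematode protein family, changed less. Probe set 181793_at read 7.62, 7.58, 7.78 and 7.76 in wild type replicates 3, 4, 5 and 6, 6.73, 6.79, 6.81 and 6.94 in hc1 replicates 1, 2, 5 and 6, and 6.44, 6.76, 6.81 and 6.76 in hc24 replicates 1, 2, 3 and 5. The mutants overlapped with each other and not with wild type. The fall was 1.82-fold in hc1 (log2 difference -0.87, SE 0.09, adjusted p = 3.64e-06) and 1.99-fold in hc24 (log2 difference -0.99, SE 0.09, adjusted p = 1.28e-06). The alleles differed by 0.13 (95% interval -0.07 to 0.32, adjusted p = 0.315). Its dimmer probe set, 171945_x_at, was over log2 4 only in wild type replicates 3, 5 and 6, at 4.56, 4.70 and 4.53, and read 3.66 in wild type replicate 4, 3.50 to 3.94 in hc1 and 3.01 to 3.62 in hc24. It was not tested.

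mlt-7 encodes a haem peroxidase that cross-links cuticle proteins, and it was the member that rose in hc24. Probe set 188716_s_at read 6.03, 5.86, 6.19 and 5.86 in wild type replicates 3, 4, 5 and 6. It read 5.91, 5.52, 5.73 and 5.87 in hc1 replicates 1, 2, 5 and 6 and 6.59, 6.85, 7.24 and 7.09 in hc24 replicates 1, 2, 3 and 5. Every hc24 array lay above all arrays of the other groups, which overlapped. The rise in hc24 was 1.94-fold (log2 difference 0.96, SE 0.14, adjusted p = 8.12e-05) and was called in all 22 settings, between 0.84 and 1.21. In hc1 the value was -0.23 (95% interval -0.53 to 0.07, adjusted p = 0.158), or 0.025 with median centring (adjusted p = 0.866), and hc1 was 2.27-fold below hc24 (adjusted p = 4.24e-05). The other probe set, 172950_at, lay at 2.86 to 3.02 in all arrays and was not tested.

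**Figure D2:**
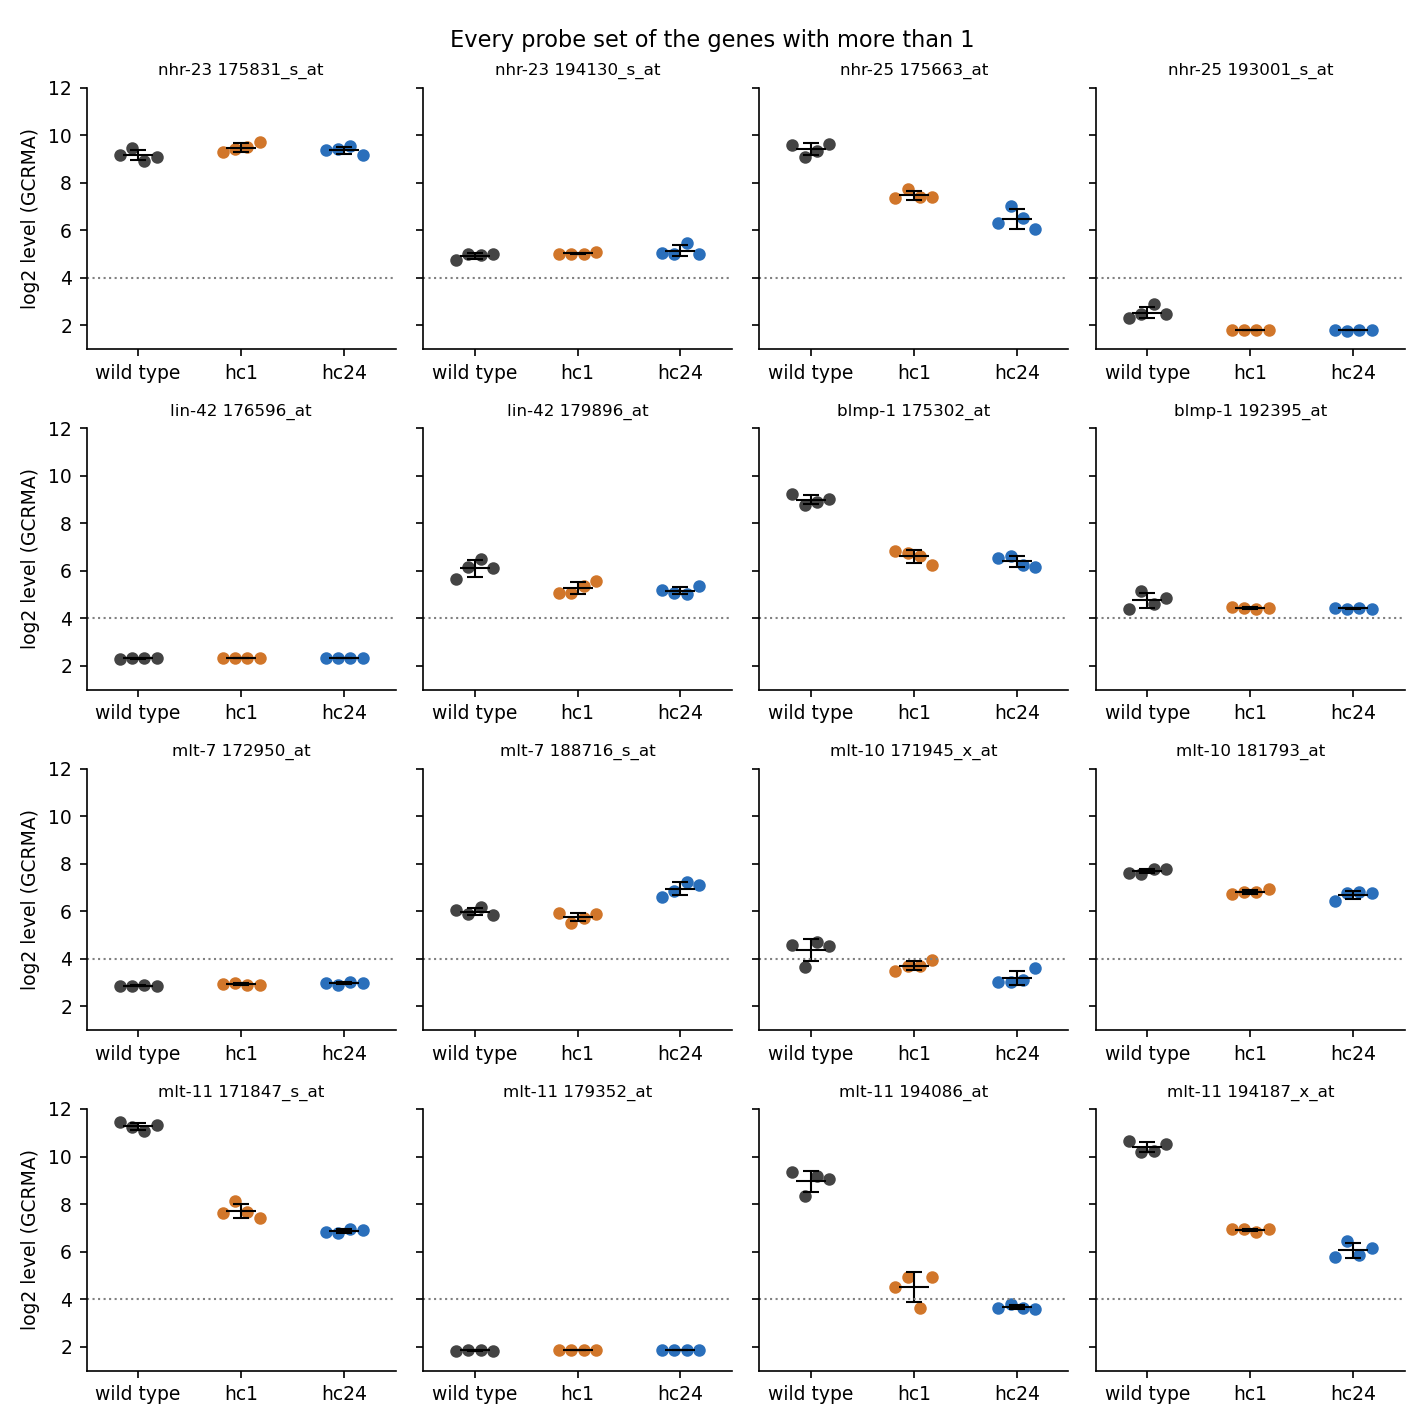
Log2 level (vertical axis) of all probe sets of the 7 genes that have several, in wild type, hc1 and hc24 (horizontal axis). Points are arrays, 4 per group, black marks are mean ± SD, and the dotted line is log2 4. The 3 bright mlt-11 probe sets fall together, and 179352_at stays at 1.84 to 1.88. The dim probe sets of nhr-25, lin-42 and mlt-7 lie under the line, and that of mlt-10 lies over it only in wild type replicates 3, 5 and 6.

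The alleles differed directly for a part of the genes. Of the 13 probe sets 6 were higher in hc1 than in hc24 and 1 was lower, against backgrounds of 18.6% and 12.2% of all tested probe sets, or 30.7% in either direction. Every tested probe set of mlt-11 is among the 6, so 1 gene is counted several times. At least 2-fold, 2 of the 13 were higher in hc1 (background 2.17%) and 1 was lower (background 3.41%). For 6 of 13 the alleles did not overlap, against 34.6%. By brightest probe set, 4 of 9 genes were higher in hc1 (background 18.8% of genes) and 1 was lower (background 12.9%). By gene, nhr-25, bed-3, mlt-8 and mlt-11 were higher in hc1, mlt-7 was lower, and nhr-23, lin-42, blmp-1 and mlt-10 were not called. For nhr-25, mlt-8 and mlt-11 each step in the order wild type, hc1, hc24 passed. For lin-42, blmp-1 and mlt-10 only the step from wild type to the mutants passed. For bed-3 and mlt-7 hc24 alone stood apart from wild type. The brightest probe sets of these 8 genes keep these calls in all 22 settings, except that bed-3 in hc1 was called lower in 3 of them, with an adjusted p of 0.0412 to 0.0447.

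**Figure D3:**
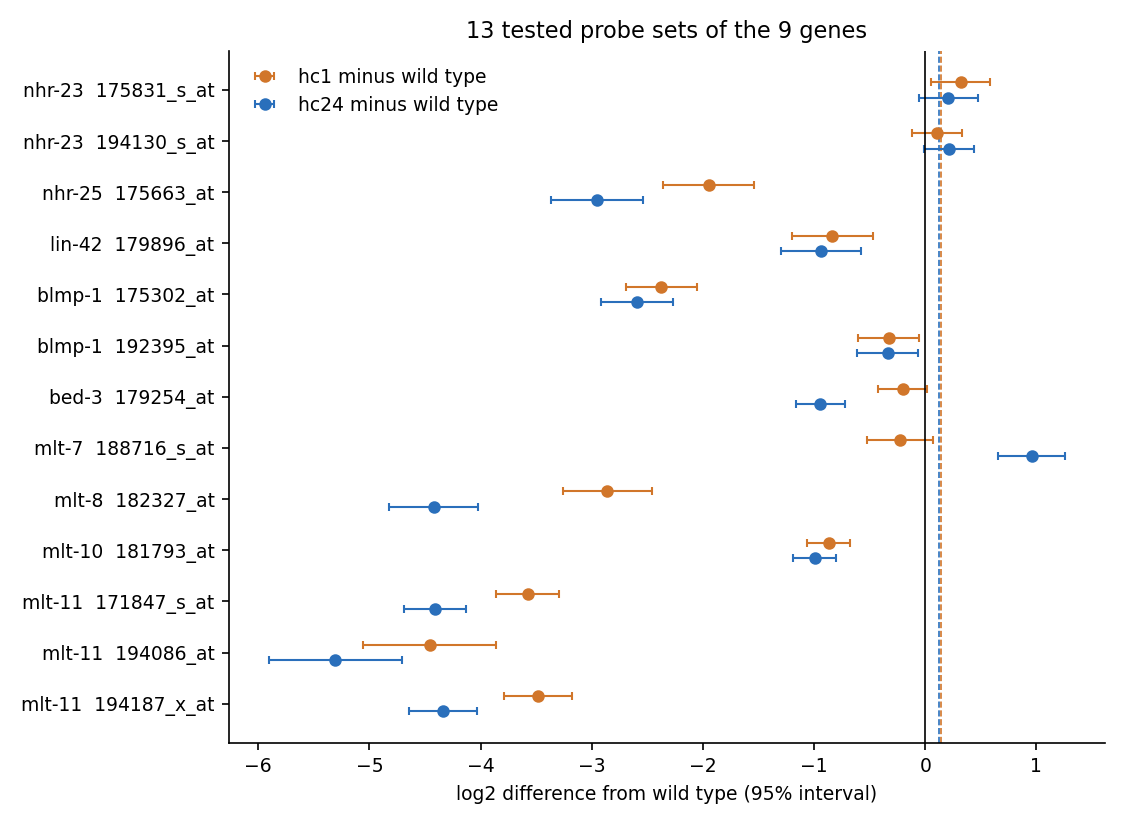
Log2 difference from wild type (horizontal axis) of the 13 tested probe sets (vertical axis) for hc1 in orange and hc24 in blue, with 95% intervals from the limma fit. Dashed lines mark the median of all tested probe sets, 0.14 and 0.12. The probe sets of mlt-11 and mlt-8 lie farthest to the left, both nhr-23 probe sets lie near the dashed lines, and mlt-7 in hc24 lies at 0.96.

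Genes with the nearest profiles were sought for each member among 8733 genes, by the root mean square difference over the 12 arrays of log2 values set relative to the wild type mean. The nearest to mlt-8 was hbl-1, a hunchback-related timing factor, at 0.194, followed by the collagen gene dpy-14 at 0.212 and hch-1, the hatching protease, at 0.260. For mlt-11 they were H42K12.3 at 0.232, pqn-13 at 0.292 and hch-1 at 0.316. hch-1 is thus shared by both lists. The nearest to nhr-25 were T27A10.6 at 0.252, the cell cycle inhibitor gene cki-1 at 0.267 and the Prickle-related gene prkl-1 at 0.274. For blmp-1 they were F13H10.5 at 0.182, the cuticlin gene cut-5 at 0.190 and mboa-1 at 0.206.

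The smaller profiles had closer neighbours. The nearest to mlt-10 were rabr-1, F33E2.5 and ZK813.2 at 0.129, 0.132 and 0.137, and to lin-42 they were C07E3.3, pqn-74 and cla-1 at 0.173, 0.178 and 0.195. The nearest to mlt-7 was C14F11.4 at 0.165, itself 0.99 higher in hc24 and -0.26 in hc1 on the log2 scale, followed by the chloride channel gene glc-2 at 0.190 and Y71F9B.13 at 0.209. The nearest to bed-3 were ttr-50, zoo-1 and lro-1 at 0.166, 0.173 and 0.181, and to nhr-23 ndx-9, T19A6.1 and syx-17 at 0.0812, 0.0937 and 0.0944. Among the members themselves the nearest pair was lin-42 and mlt-10, at 0.218. nhr-25 and blmp-1 stood at 0.391, and mlt-8 and mlt-11 at 0.504. Of the 8733 other genes some lay nearer than these partners in every case. They numbered 6 for lin-42 and 102 for mlt-10, 21 for nhr-25 and 48 for blmp-1, and 27 for mlt-8 and 40 for mlt-11.

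mlt-10 and mlt-8 lie close together on chromosome II, with 4 protein-coding genes between them in RefSeq order. These neighbours were looked up after the members' values were known. lips-7 lay under log2 4 in each group and C09E8.6 had no probe set of its own. W08F4.5 was not called in hc1 (-0.01, adjusted p = 0.956) or hc24 (0.10, adjusted p = 0.379). C09E8.1 fell by 0.44 in hc1 (adjusted p = 0.00214) and was at -0.04 in hc24 (adjusted p = 0.762). Neither of the latter pair fell as far as mlt-10 or mlt-8 in either mutant.

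Other genes of the molting pathway were taken from 5 lists with 86 genes, of which 82 had a probe set of their own and 53 were tested by their brightest one. In hc1, 33 of 53 fell and 8 rose, against a background of 27% and 42.9% of genes. In hc24, 35 fell and 7 rose, against 22.1% and 38%. nas-7 and mlt-9, counted as falls in both mutants, passed the filter only through wild type arrays, so their direction was fixed by it. The median log2 difference was -0.68 in hc1 and -0.74 in hc24, beside 0.13 and 0.12 over all genes. Between the alleles 21 genes were higher in hc1 and 6 lower, against 18.8% and 12.9%. With median centring 29 fell and 14 rose in hc1 and 29 fell and 12 rose in hc24. With cyclic loess 38 fell and 4 rose, and 40 fell and 4 rose.

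Of 12 timing and epidermal regulators 4 fell, 3 rose and 5 were not called in hc1, beside 27% of all genes lower and 42.9% higher, so the share that fell is near the background. hbl-1 fell 8.03-fold in hc1 and 22.4-fold in hc24 (adjusted p = 1.11e-09 and 3.15e-11), from 12.18 to 9.17 and 7.69. peb-1, which encodes a DNA-binding protein of the pharynx and epidermis, fell 6.22-fold and 15.4-fold. elt-3, a GATA factor of the epidermis, fell 3.93-fold in hc1 and 2.29-fold in hc24. lin-41, a TRIM-NHL regulator of developmental timing, rose 1.43-fold in hc1 and 1.18-fold in hc24, and lin-66 rose 1.32-fold in hc1. With cyclic loess lin-41 in hc24 and lin-66 in hc1 were no longer called (adjusted p = 0.372 and 0.126). In hc24, 7 of 12 fell and 1 rose, beside 22.1% and 38% of all genes, pan-1, a leucine-rich repeat gene needed for larval molts, falling 2.06-fold.

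Of 12 tested genes of sterol uptake, hedgehog-related signals and trafficking 8 fell and 2 rose in hc1, and 7 fell and 3 rose in hc24. Of all genes 27% fell and 42.9% rose in hc1, and 22.1% fell and 38% rose in hc24. wrt-1, a hedgehog-related gene, had the largest change of the list. lrp-1, the megalin-like receptor that takes up sterols at the epidermal surface, fell 3.09-fold in hc1 and 3.14-fold in hc24. ptc-3, a patched receptor gene, fell 3.04-fold in hc1 and 2.90-fold in hc24, and the kinase gene nekl-2 fell 3.99-fold and 3.44-fold. dab-1, which encodes an adaptor for lipoprotein receptors, rose 1.67-fold and 1.64-fold, and ptr-2 rose 1.25-fold and 1.28-fold, the first not called with cyclic loess (adjusted p = 0.173). let-767, a gene of lipid and steroid metabolism, went opposite ways, at -0.37 in hc1 and 0.19 in hc24, with a difference of -0.56 between the alleles (adjusted p = 6.73e-06). Its fall in hc1 was not called with median centring (adjusted p = 0.0786), nor its rise in hc24 with cyclic loess (adjusted p = 0.592).

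Among cuticle enzymes, proteases and inhibitors each mutant had 12 of 18 genes lower and 2 higher. nas-7 is among the 12, with means of 4.68, 3.43 and 3.44 in the order wild type, hc1, hc24. It passed the filter only through wild type arrays, so its lower level in the mutants was fixed by the filter. The shares of all genes were 27% lower and 42.9% higher in hc1, and 22.1% and 38% in hc24. acn-1, which encodes an ACE-like protein needed for molting, fell 10.6-fold in hc1 and 29.0-fold in hc24. cpz-2, a cathepsin Z gene, fell 1.95-fold in hc1 and 1.82-fold in hc24, and dpy-31, a procollagen protease gene, 2.13-fold and 1.56-fold. bli-3, the dual oxidase that supplies peroxide for cross-linking, fell 2.05-fold in hc1 and 3.15-fold in hc24. dpy-18, a collagen prolyl hydroxylase gene, fell 1.51-fold and 1.84-fold. skpo-3, a peroxidase gene like mlt-7, rose 2.02-fold in hc24 (log2 difference 1.01, adjusted p = 0.000972) and fell by 0.48 in hc1 (adjusted p = 0.0483), a fall not called with median centring (adjusted p = 0.255). trxr-1, the thioredoxin reductase gene, rose 1.81-fold in hc1 and 1.27-fold in hc24, but its probe sets differed in their calls.

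The apical matrix list had the lowest median of the 5, at -2.77 in hc1 and -3.57 in hc24. In each mutant 7 of 8 genes were lower and 1 higher. Over all genes 27% were lower and 42.9% higher in hc1, and 22.1% and 38% in hc24. noah-1 and noah-2, which encode zona pellucida domain proteins of the matrix, fell 7.64-fold and 6.54-fold in hc1 and 16.2-fold and 14.3-fold in hc24. lpr-3, a lipocalin gene, fell 9.42-fold and 25.7-fold. egg-6, a leucine-rich repeat gene, was the member that rose, 1.29-fold and 1.28-fold, the first not called with cyclic loess (adjusted p = 0.0749). Of the mlt-10 relatives and mlt-9, 3 of 11 with a probe set of their own were tested, so the list says little. mltn-9 fell 2.08-fold and 2.49-fold. mlt-9 was at least 4.87-fold lower in each mutant, whose means of 3.31 and 3.11 lay under log2 4. It passed the filter only through wild type arrays.

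**Figure D4:**
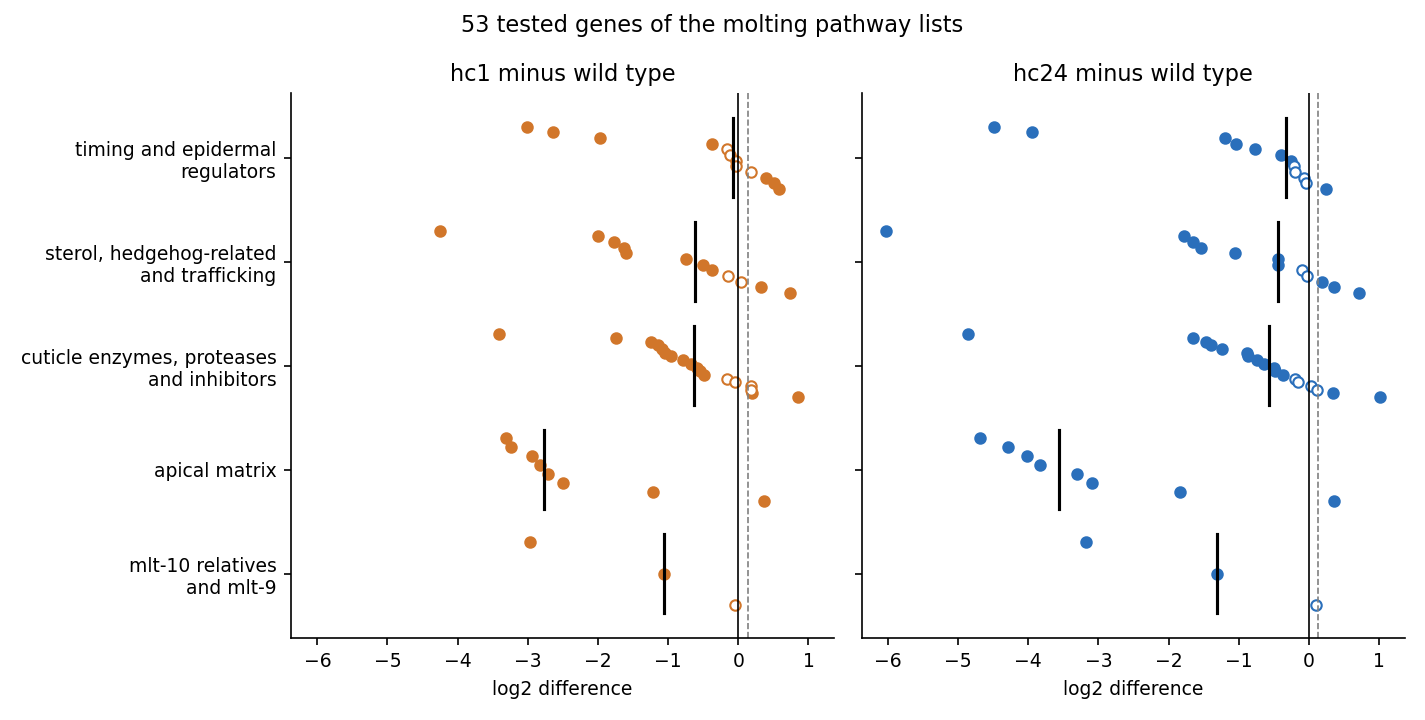
Log2 difference from wild type (horizontal axis) of the 53 tested genes of the molting pathway lists, by list (vertical axis), in hc1 on the left and hc24 on the right. Filled points were called, open points were not, black bars are list medians and the dashed line is the median of all tested probe sets. The apical matrix list has the lowest median, with 7 of 8 genes lower in each mutant (27% of all genes in hc1 and 22.1% in hc24). wrt-1 and acn-1 of other lists are the lowest single genes.

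Markers of other cells were read by group and did not all move alike. For 9 early embryonic markers the log2 of the summed level ranged from 6.72 to 6.96 in the wild type arrays. It ranged from 11.26 to 11.44 in the hc1 arrays and from 10.81 to 10.99 in the hc24 arrays. Of 6 tested genes 5 were higher and 1 lower in hc1, and 4 were higher and 1 lower in hc24. Of all genes 42.9% were higher and 27% lower in hc1, and 38% and 22.1% in hc24. The lower gene was end-1, with means of 5.21, 4.73 and 4.67 in the order wild type, hc1, hc24. The sum in the mutants comes mostly from pes-10, tbx-37, tbx-38 and tbx-43. pes-10, tbx-37, end-3, med-1, sdz-1 and sdz-38 lay under log2 4 in every wild type array. end-3, med-1 and sdz-1 did so in every mutant array too and were not tested, and sdz-38 did so in every hc24 array. pes-10, tbx-37 and sdz-38 therefore passed the filter only through mutant arrays, sdz-38 through hc1 alone. Their higher level there was fixed by the filter, so the counts of tested genes cannot be weighed against the share of all genes. For 8 oocyte markers the summed level was 16.50 to 16.75 in wild type arrays, 16.97 to 17.04 with hc1 and 16.75 to 16.89 with hc24. Of these 8 genes 8 were higher in hc1 and 5 in hc24, beside 42.9% and 38% of all genes. Sperm markers were uneven within hc1, at 11.54 in replicate 2 and 9.22 to 9.54 in the other arrays. Wild type arrays had 9.80 to 10.46 and hc24 arrays 11.71 to 11.99, and 6 of the 11 sperm genes, fer-1, spe-9, spe-11, spe-38, gsp-3 and gsp-4, lay under log2 4 in every array. The summed sperm level is mostly that of msp-78 and ssp-37, so it says little of the other sperm genes. In the order wild type, hc1, hc24, msp-78 had means of 7.99 (SD 0.82), 8.03 (SD 2.24) and 11.63 (SD 0.16). In that order ssp-37 had means of 9.51, 8.55 and 8.83. Of 5 tested sperm genes 1 was higher and 1 lower in hc1, and 3 were higher and 1 lower in hc24. Among them nspd-4 lay under log2 4 in every wild type array and so passed the filter only through mutant arrays. When hc1 replicate 2 was left out, 9 of 13 member probe sets were called in hc1, 1 higher and 8 lower.

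The epidermis itself was measured by 7 markers, 4 of which are also on the pathway lists. Their summed level was 15.96 to 16.10 in wild type arrays, 15.27 to 15.62 with hc1 and 15.74 to 15.95 with hc24. In each mutant 4 of 6 tested genes fell, beside 27% of all genes in hc1 and 22.1% in hc24. The sum is dominated by the collagen gene sqt-3, whose own means were 15.91, 15.43 and 15.75 in that order, so it says little of the other 6 markers. The others are given singly, which was decided after their values were seen. lin-26, a factor of epidermal identity, had means of 11.38 ± 0.12, 11.35 ± 0.07 and 11.13 ± 0.10 (SD, n = 4) in the order wild type, hc1, hc24. It was called lower in hc24 (-0.25, adjusted p = 0.0128) and was not called in hc1 (-0.03, adjusted p = 0.703). In the same order elt-1 had means of 8.51, 8.14 and 7.74, elt-3 8.92, 6.95 and 7.73, and rol-6 7.39, 7.11 and 7.70. The collagen gene dpy-7 had 10.52 ± 0.26, 6.48 ± 0.09 and 6.15 ± 0.33 (SD, n = 4) in that order. che-14 lay under log2 4 in each array. The part that embryonic, germ line, sperm or epidermal content plays in the levels of the 9 genes was not tested.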

How the data were processed

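Each array contributes a log2 value for every probe set, as the authors deposited it. The submitters' processing notes name Affymetrix Expression Console and GCRMA, without versions. GCRMA corrects background by probe sequence, normalizes across arrays and summarises probes. Labelling started from 100 ng of total RNA, per the labels' protocols.

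Groups came from the sample titles. The 77 control probe sets were left out. limma 3.58.1 in R 4.3.3 fitted a mean per group over 12 arrays without covariates, with empirical Bayes moderation, and was checked on simulated data. Intervals are 95% from that fit, and p-values are two-sided. A group with a mean under log2 4 was held at 4 and its fold called "at least". There is no read depth here, so precision depends on the number of arrays. Sample titles name them biological replicates.

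The rule for named genes took the 9 members with all their probe sets, the 3 nearest profiles of each called member, and from every pathway list, per mutant, the 3 risen and the 3 fallen genes of smallest adjusted p, of which some are named. The members, lists and tests were chosen with earlier results of these data known. Alternatives changed the filter, floor, scaling, variance model, array weights, arrays, probe set rule and replicate block. Same-numbered arrays did not deviate together, with correlations of -0.07 to 0.08 over 7 pairs, so the number was not used for pairing.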

Additional observations from a re-analysis of the deposited data

Results flagged for a closer look

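The array farthest from its group was compared with Dixon's 95% critical value for 4 arrays in 138 groups, 54 of them of the 18 member probe sets. Chance marks about 1 group in 20, and 19 arrays were marked, 9 of them in member probe sets.

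Among bright member probe sets, nhr-25 175663_at stood high in hc1 replicate 2 at 7.74 (others 7.37 to 7.39), bed-3 stood high in hc1 replicate 6 at 6.41 (others 6.18 to 6.19), and mlt-10 181793_at stood low in hc24 replicate 1 at 6.44 (others 6.76 to 6.81). mlt-11 194187_x_at was low in hc1 replicate 5 at 6.84 (others 6.94 to 6.95). Among dim ones, nhr-23 194130_s_at was low in wild type replicate 3 at 4.74 and high in hc24 replicate 3 at 5.48. mlt-10 171945_x_at was low in wild type replicate 4 at 3.66 and high in hc24 replicate 5 at 3.62, and mlt-11 194086_at was high in hc24 replicate 2 at 3.80.

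Among pathway genes, acn-1 was high in hc1 replicate 2 at 7.12 and low in hc24 replicate 5 at 4.68. mltn-9 was high in wild type replicate 5 at 7.12 and low in hc1 replicate 5 at 5.63. mlt-9 was high in hc1 replicate 2 at 3.48 and low in hc24 replicate 1 at 2.85. peb-1 was high in hc24 replicate 3 at 4.14, myrf-2 and pan-1 were high in hc1 replicate 6 at 9.89 and 10.2, and wrt-1 was low in hc24 replicate 2 at 3.93.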

How the results depend on the processing

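Leaving out each array in turn gave 8 to 10 called member probe sets in hc1 (10 with all arrays), 10 to 11 in hc24 (11) and 6 to 7 between the alleles (7). The other alternatives gave 8 to 11, 10 to 13 and 6 to 7. With the replicate block 9, 11 and 6 were called. Pathway genes called ranged from 38 to 54 in hc1, 37 to 49 in hc24 and 21 to 31 between the alleles over all alternatives. Calls over all probe sets in hc1 rose from 8194 to 12514 without the filter on low values, where 22548 probe sets were tested. Of 816 alternative values for single member probe sets, 763 kept direction and side of the threshold, 38 lost a call, 8 gained one and 7 changed sign. The lost calls belong to nhr-23 175831_s_at in hc1, blmp-1 192395_at in both mutants and mlt-11 194086_at between the alleles. The sign changes touch values that were not called. With median centring bed-3 and mlt-7 in hc1 became 0.049 and 0.025. Between the alleles, the replicate block turned blmp-1 192395_at to -0.051 and lin-42 to -0.027. Leaving out single arrays there gave -0.00030 to 0.026 for blmp-1 192395_at, -0.0049 to 0.17 for lin-42 and -0.15 to 0.0080 for nhr-23 194130_s_at. nhr-23 in hc24 was called with the replicate block (0.41, adjusted p = 0.0128), with median centring and without wild type replicate 4. The cause of these changes was not tested. Signals near log2 4 limit the dim probe sets.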
